A study of Rattus norvegicus with 4 samples.

Results

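The keratin genes were described in RTEC11, an epithelial cell line from the trachea of transgenic rats that carry a temperature-sensitive large T antigen of simian virus 40. Members were the probe sets annotated to exactly 1 gene symbol made of Krt and a number. These were 18 of the 15923 probe sets on the array and represented 16 of 10411 genes. A further 2 probe sets, each listing several hair keratins, were not used. RefSeq lists 55 protein-coding rat genes under such a symbol, so most of the family was not measured, Krt6a under its own symbol, Krt16 and Krt17 among them. Cells were kept for 3 days either at 33 °C, the permissive temperature at which the antigen is active and drives division, or at 39 °C, the nonpermissive temperature at which it is inactive. Each temperature had 2 arrays of total RNA. Every array came from the same cell line with the same transgene, so the effects of temperature and of antigen activity cannot be told apart. Nothing in the labels tells if the replicates came from separate cultures. The p-values therefore measure the spread between these arrays alone, which may be technical.

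Keratins are the intermediate filament proteins of epithelial cells. A filament is built from pairs of a type I and a type II keratin, and neither kind polymerises alone. Simple epithelia use Krt8 with Krt18, joined by Krt7, Krt19 and Krt20. Basal cells of stratified and airway epithelia use Krt5 with Krt14, joined by Krt15. Suprabasal cells change to other pairs, among them Krt4 with Krt13 in mucosal squamous epithelia and Krt1 with Krt10 in the epidermis, while the Krt6 proteins pair with Krt16 and Krt17 in wounded or rapidly dividing epithelium. Another set of keratins forms hair and nail.

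The values are probe set intensities on a linear scale whose trimmed mean is about 500 on each array. They are compared here as log2(intensity + 16) after quantile normalization, and a change is the mean at 39 °C minus the mean at 33 °C on that scale. The limit used for background was the 40th percentile of the probe sets' mean levels, 6.60 on the log2 scale, which is an intensity of 81.1. Of 32 probe sets for 28 genes of unrelated tissues, such as insulin and growth hormone, 4 lay above this limit at each temperature. Of all probe sets, 60% did so at 33 °C and 60.2% at 39 °C, a share largely set by the limit's definition. The highest intensity of the unrelated genes on any array was 177.8. The Krt15 intensities at 39 °C and most of those of Krt20, counted below as above background, were under that value. So was the lower intensity at 33 °C of the brightest Krt6c probe set, 171.4. A level above the limit is thus no proof of expression. The correlation between replicates was 0.979 for 33 °C and 0.98 for 39 °C. Over the 7016 genes that passed the limit, 23.1% were called higher and 26.1% lower at 39 °C (limma, Benjamini-Hochberg adjusted p under 0.05). Their median change was -0.04, which became 0.02 on the deposited scale, -0.13 under median centring of the arrays and -0.36 under spike-in scaling, which sets the arrays level on their poly-A control transcripts.

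At 33 °C, 7 keratin genes lay above background: the simple keratins Krt7, Krt8, Krt18, Krt19 and Krt20, the basal keratin Krt14, and Krt6c of the stratified class. At 39 °C the same 7 did so, joined by Krt4, Krt79 and Krt15. No keratin gene lay above background at 33 °C alone. The other 6, which were Krt5, Krt1, Krt10, Krt12, Krt13 and the hair keratin Krt36, lay below it at both temperatures. Among the 10 keratin genes tested, 5 were called higher, 2 lower and 3 were not called, which compares with 49.1% called in either direction over all tested genes. Because a gene could pass the limit through the temperature at which it was high, the count was also taken without a limit. It was then 4 higher and 2 lower of 16, against 14.4% higher and 15.6% lower, or 30% in either direction, of all 10411 genes. On the normalized scale the temperatures did not overlap in 16 of the 18 keratin probe sets, against 60% of all probe sets.

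**Figure D1:**
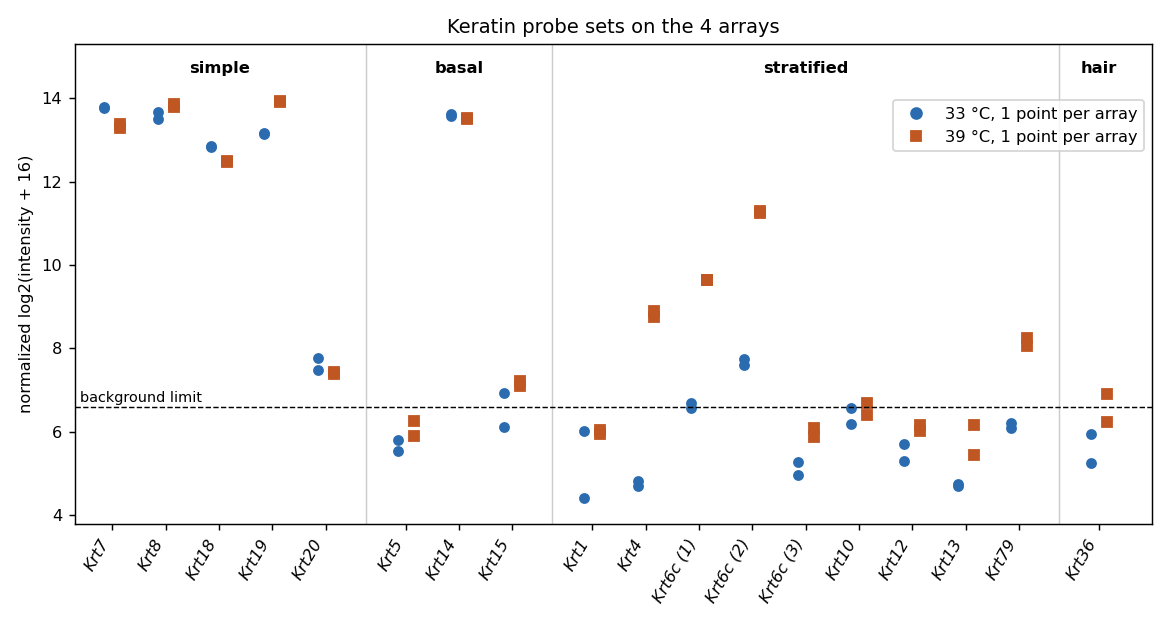
Normalized log2(intensity + 16) of each of the 18 keratin probe sets on each array, with 2 points at 33 °C and 2 at 39 °C, grouped by class; the dashed line is the background limit of 6.60. The simple keratins and Krt14 were above the line at both temperatures, Krt4 and Krt79 crossed it, and Krt5, Krt13 and Krt36 had means below it at both. Krt6c has 3 probe sets, and heights of different probe sets cannot be compared.

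The largest called changes of the family were in 3 stratified keratins, Krt4, Krt6c and Krt79. Krt4, the type II keratin of the suprabasal layers of mucosal squamous epithelia, had deposited intensities of 11.2 and 9.2 at 33 °C and of 430.2 and 480.9 at 39 °C. Both arrays at 33 °C were far under the background limit and both at 39 °C above it. On the log2 scale Krt4 rose by 4.06 ± 0.25 (SE), from 4.77 ± 0.09 to 8.82 ± 0.11 (SD, n = 2 each), with an adjusted p of 4.64e-07. Krt4 passed the limit only through its level at 39 °C, and in the limma fit without a limit the adjusted p was 7.41e-05. Since its level at 33 °C was below background, the rise is better given as a bound, at least 4.67-fold against the limit. The log2 change was 5.17 with 1 added to each intensity, where the gene fell under the limit and was not tested, and 2.74 with 64 added.

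Krt6c, a type II keratin of the kind induced in wounded epithelium, was measured by 3 probe sets. The brightest gave 187.7 and 171.4 at 33 °C and 2443.4 and 2378.8 at 39 °C. It was above background on all 4 arrays, and no other keratin that was above background at both temperatures changed as much. At 33 °C, though, its intensities lay on either side of 177.8, the highest of the genes of unrelated tissues. It rose 12.1-fold, a log2 change of 3.60 ± 0.12 (SE) with an adjusted p of 9.4e-09. As the mean of its 3 probe sets the change was 2.49. The second Krt6c probe set went from 82.0 and 75.2 to 795 and 794.7, a log2 change of 3.01 (adjusted p of 1.54e-07 in the fit over 9520 probe sets, 47.2% of which were called). The third stayed under the limit, at 13.7 and 21.0 against 59.4 and 41.1. RefSeq lists Krt6a both as an older name of Krt6c and as a separate gene. The brightest probe set carries the _s_at suffix of sets that match several transcripts, so which Krt6 gene it detected cannot be told apart.

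Krt79, a type II keratin known in the mouse from hair follicle openings and sebaceous ducts, also crossed the limit. Its intensities were 49.0 and 55.7 at 33 °C and 265.3 and 298.9 at 39 °C. The groups were well separated, and the change was 2.004 ± 0.22 (SE) with an adjusted p of 2.59e-05, or at least 2.94-fold against the limit. Krt79 too passed the limit only through 39 °C, and in the limma fit without a limit the adjusted p was 0.000789. Krt79 lies next to Krt4 in the type II keratin cluster, with 0 protein-coding genes between them in RefSeq. These neighbours had the same pattern of being above background at 39 °C and not at 33 °C. On the other side, 2 protein-coding genes away, Krt1 gave 5.1 and 47.4 at 33 °C and 57.1 and 43.9 at 39 °C and stayed under the limit.

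Krt13, the type I keratin that pairs with Krt4, did not reach the limit. Its intensities were 10.1 and 9.3 at 33 °C and 31.8 and 53.1 at 39 °C. The arrays at 39 °C were the higher ones, but with both groups under background no fold is given, and in the fit without a limit the adjusted p was 0.0604. The other stratified keratins were also below background: Krt10, the epidermal type I keratin, was at 53.5 and 75.3 against 77.2 and 88.4, with overlapping groups on the normalized scale. The corneal type I keratin Krt12 was at 34.2 and 21.7 against 63.4 and 46.8. All 7 stratified keratin genes had a positive change, 4 of them from values below background at both temperatures, while 47.2% of all 10411 genes did so. The sign turned without permissive replicate 1 for Krt1 (-0.02) and Krt10 (-0.03), and under spike-in scaling for Krt10 (-0.07).

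RefSeq promoter windows (assembly GRCr8, 250 bases before to 50 after the annotated start) were at hand for 10 of the 16 keratin genes. Those of Krt4 and Krt6c are shown because these genes rose most, and those of the partners Krt8 and Krt18 because they were called in opposite directions, Krt8 after quantile normalization only. Each is on the strand of its gene, 5′ to 3′. Capitals mark the letters TATAA of a TATA box, TGANTCA of an AP-1 site and GGGCGG of a GC box, searched on both strands.
Krt4, chr7:134930664-134930963, minus strand: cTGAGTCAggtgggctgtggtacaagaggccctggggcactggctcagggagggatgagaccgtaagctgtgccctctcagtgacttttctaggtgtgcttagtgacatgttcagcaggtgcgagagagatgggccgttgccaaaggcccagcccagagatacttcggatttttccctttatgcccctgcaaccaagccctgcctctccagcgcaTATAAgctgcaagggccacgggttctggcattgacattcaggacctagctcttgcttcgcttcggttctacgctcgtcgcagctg
Krt6c, chr7:134682704-134683003, minus strand: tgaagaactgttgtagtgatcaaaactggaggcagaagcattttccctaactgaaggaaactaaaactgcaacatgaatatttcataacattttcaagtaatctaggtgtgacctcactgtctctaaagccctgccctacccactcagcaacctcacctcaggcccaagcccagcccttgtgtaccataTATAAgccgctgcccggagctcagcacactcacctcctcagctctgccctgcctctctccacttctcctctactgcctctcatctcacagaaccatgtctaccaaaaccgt
Krt8, chr7:135010290-135010589, minus strand: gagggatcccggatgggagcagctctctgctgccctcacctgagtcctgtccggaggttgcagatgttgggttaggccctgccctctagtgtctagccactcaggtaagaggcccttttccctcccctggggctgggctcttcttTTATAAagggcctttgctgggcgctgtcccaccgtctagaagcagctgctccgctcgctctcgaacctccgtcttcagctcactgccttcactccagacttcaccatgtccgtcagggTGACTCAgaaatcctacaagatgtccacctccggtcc
Krt18, chr7:135035918-135036217, plus strand: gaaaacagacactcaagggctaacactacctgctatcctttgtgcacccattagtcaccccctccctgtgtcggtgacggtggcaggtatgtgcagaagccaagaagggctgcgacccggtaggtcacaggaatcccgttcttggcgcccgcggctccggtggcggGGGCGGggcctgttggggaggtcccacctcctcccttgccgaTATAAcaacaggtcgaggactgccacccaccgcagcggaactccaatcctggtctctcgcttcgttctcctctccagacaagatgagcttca
The Krt4 window held TGANTCA from base -249 and TATAA from base -35 relative to the annotated start. Krt6c held only TATAA, from base -61. In Krt8 the TATAA at base -104 overlapped its copy on the opposite strand at base -105, and TGANTCA began at base 14, downstream of the annotated start. The annotated start of that window is the a of the letters atg. Its positions may therefore count from a start codon, and the TGANTCA may lie in coding sequence. Krt18 held GGGCGG from base -84 and TATAA from base -42. TATAA was found in 9 of the 10 keratin genes in at least 1 of their windows, TGANTCA in 2, that of Krt8 included, and GGGCGG in 2. Of all 33469 windows, 26.2% held TATAA, 7.33% TGANTCA and 33.1% GGGCGG. These shares are per window and the keratin counts per gene, so the 2 are not directly comparable. Krt79 had several windows, with TATAA in only 1, from base -245. These matches describe letters and are not shown binding sites.

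The simple keratins were above background at both temperatures, with called changes under 2-fold in different directions. Krt7, a type II keratin of glandular and airway epithelium, went from 14554.3 and 13831.5 to 9577.9 and 10450. Both arrays at 39 °C were lower, and the fall was 1.37-fold, a log2 change of -0.45 ± 0.08 (SE, adjusted p 0.00056). Krt18, the type I partner of Krt8, went from 7522.8 and 7530 to 5467.9 and 5585.9. It fell 1.28-fold, a log2 change of -0.36 ± 0.08 (SE, adjusted p 0.00288). Both falls were also called under each other scaling, added constant, limit, choice of probe sets and variance model, and without each array.

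Krt19, a type I keratin of simple and luminal airway cells with an unusually short tail, changed in the other direction. Its intensities were 9308.9 and 9294.9 at 33 °C and 15216.3 and 14957.6 at 39 °C. The replicates of each temperature lay close together, and Krt19 rose 1.71-fold, a log2 change of 0.77 ± 0.07 (SE, adjusted p 1e-05). The change was 0.32 under spike-in scaling and was still called. Krt8, the type II partner of Krt18, was at 11723.2 and 13362 at 33 °C and at 14282.5 and 13970.2 at 39 °C. The groups did not overlap, but the gap was small, with a log2 change of 0.23 ± 0.08 (SE, adjusted p 0.0384). That call was lost on the deposited scale (0.17), under median centring (0.03), and without permissive replicate 1 (0.15) or nonpermissive replicate 1 (0.20) or 2 (0.26), and the sign turned under spike-in scaling (-0.21). RefSeq lists pseudogene copies of Krt8 and Krt18, and their probe sets may detect these too.

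Krt20, a type I keratin of intestinal, urothelial and Merkel cells, was at 152.5 and 193.8 at 33 °C and at 168.8 and 158.5 at 39 °C. It was above background on all 4 arrays. The deposited intensities overlapped, and the change of -0.21 had a 95% interval from -0.65 to 0.22 and was not called (adjusted p 0.395).

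Among the basal keratins Krt14, the type I keratin of basal cells, was at 12515.9 and 12845.6 at 33 °C and at 11449.4 and 11668.6 at 39 °C. The change of -0.08 had a 95% interval from -0.24 to 0.08 and was not called (adjusted p 0.392). It was called lower under median centring (-0.28) and under spike-in scaling (-0.51). Krt5, its type II partner, was under the limit on all 4 arrays, at 37.5 and 28.7 against 49.8 and 59.6. Krt15, a type I basal keratin, was at 50.8 and 100.5 at 33 °C and at 143.9 and 124.3 at 39 °C. Its arrays at 33 °C lay on either side of the limit, and the change of 0.63 ± 0.30 (SE) was not called (adjusted p 0.101). It became 0.23, not called, without permissive replicate 1 and 1.04, called, without permissive replicate 2.

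Krt36, a type I hair keratin, was at 43.2 and 20.5 at 33 °C and at 67.5 and 107.3 at 39 °C. Its mean was under the limit at both temperatures, with 1 of the 2 arrays at 39 °C above it. Of 10 hair follicle markers, 4 had a probe set and none passed the limit as a mean over the 4 arrays. Tchh, the trichohyalin of the inner root sheath, was just above the limit at 33 °C, at 86.9 and 86.3, and under it at 39 °C, at 17.5 and 17.2. It was the hair follicle marker above background at 33 °C, and at 39 °C there was none.

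**Figure D2:**
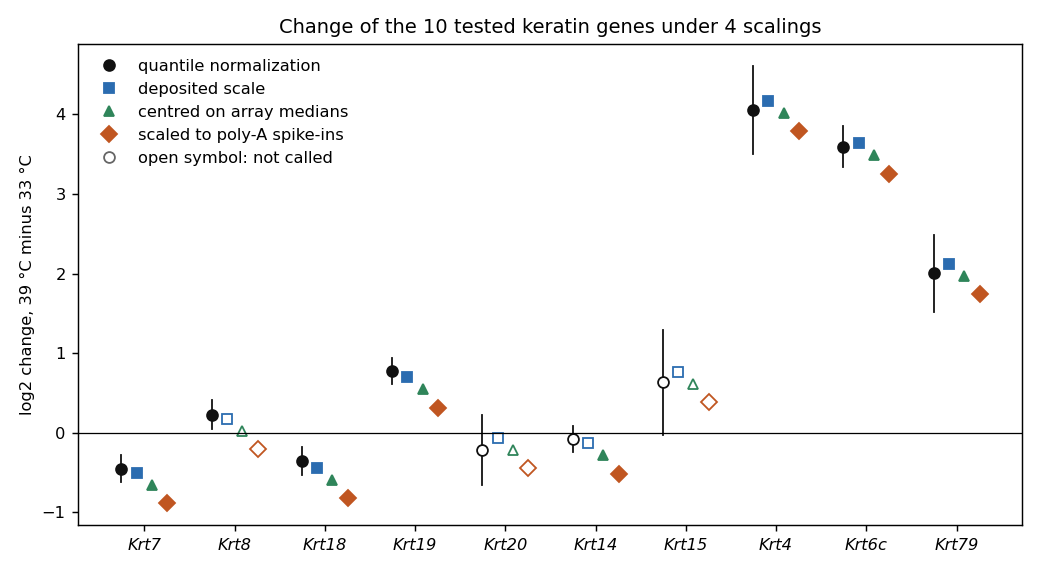
Log2 change at 39 °C against 33 °C of the 10 tested keratin genes under 4 scalings, with filled symbols where the adjusted p was under 0.05; lines are 95% intervals after quantile normalization. Krt4, Krt6c, Krt79 and Krt19 were called higher and Krt7 and Krt18 lower under all 4, Krt8 was called after quantile normalization only, and Krt14 under median centring and spike-in scaling only.

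The median change of all 16 keratins was 0.61, against -0.04 over all genes. This value lies between Krt12, under the limit at both temperatures, and Krt15, not called, so it too depends on dim members. Over the 10 tested keratins the median was 0.43, against -0.04 over all genes tested. By class the median was -0.21 for the 5 simple, 0.41 for the 3 basal and 1.06 for the 7 stratified keratins, members under the limit at both temperatures included. The basal median is the change of Krt5 and the stratified one that of Krt13, both under the limit at both temperatures. Their size thus depends on the added constant: Krt13 was at 1.78 with 1 added and 0.48 with 64 added. Among the stratified members under the limit at both temperatures, Krt10 had a change of 0.17, Krt12 of 0.59, Krt1 of 0.78 and Krt13 of 1.06, none of them tested. Of the keratins above background at both temperatures, Krt6c ranked 9th and Krt19 691st among the rises of the 7016 tested genes, and Krt7 was the 1523rd of the falls. A log2 change of at least 1 in either direction was seen in 4 of the 16 keratins, Krt4, Krt6c, Krt79 and, under the limit at both temperatures, Krt13, and in 10% of all genes.

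**Figure D3:**
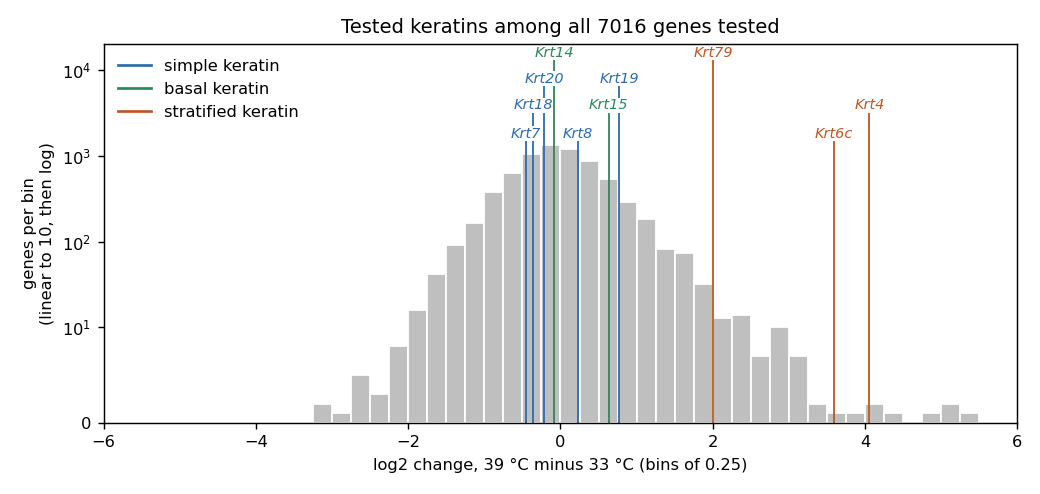
Number of genes per bin of 0.25 in log2 change at 39 °C against 33 °C over all 7016 genes tested, with a line for each of the 10 tested keratins coloured by class; the count axis is linear up to 10 and logarithmic above. Krt79, Krt6c and Krt4, at 2.004, 3.60 and 4.06, lie in the sparse upper end, and Krt7 to Krt19, from -0.45 to 0.77, lie within the bulk.

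The balance between partner keratins was compared within each array, which reduces the effect of array scaling but does not remove that of quantile normalization. The log2 difference of Krt8 minus Krt18 was 0.68 and 0.82 at 33 °C and 1.38 and 1.30 at 39 °C. Both arrays at 39 °C were higher, by 0.59 on average and by 0.62 on the deposited scale. For Krt4 minus Krt13 the difference grew by 3.00 on this scale, but both were under the limit at 33 °C and Krt13 at 39 °C too, so its size depends on the constant of 16. Krt5 minus Krt14 grew by 0.50, or by 0.66 on the deposited scale, with Krt5 under the limit. Krt1 minus Krt10, both under the limit, overlapped between temperatures. With 2 arrays against 2, the smallest two-sided p of an exact permutation test is 0.333, so none of these 4 differences could pass. A shift in such a difference shows unequal change of the 2 genes and gives no ratio of the proteins, since probe sets differ in brightness.

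**Figure D4:**
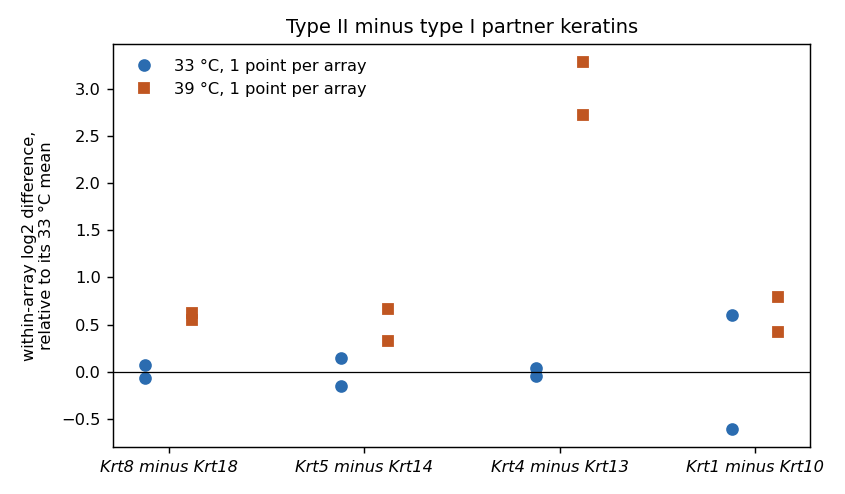
Within-array log2 difference between the type II and the type I keratin of 4 partner pairs, relative to its mean at 33 °C, with 1 point per array. The 39 °C points of Krt8 minus Krt18 lie 0.59 above the 33 °C ones on average and those of Krt4 minus Krt13, both under the limit at 33 °C, lie 3.00 above, while the Krt1 minus Krt10 points overlap.

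Some other neighbouring keratins differed in their calls and some did not. Krt8 and Krt18 are adjacent, with 0 protein-coding genes between them, and Krt18 fell while Krt8 was at 0.23. In the type I cluster Krt13, Krt15 and Krt19 follow each other with 0 protein-coding genes between. Of these Krt13 was under the limit, Krt15 was not called and Krt19 rose. Krt36 and Krt13, and likewise Krt10 and Krt12, have 0 protein-coding genes between them, and all were under the limit at both temperatures. Krt20, which follows Krt12 with 0 between, was above background and not called.

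Among proteins that anchor keratin filaments, all 9 measured linkers and anchors were tested, of which 5 rose and 2 fell (median change 0.48, against -0.04 over all genes tested, 23.1% of which were called higher and 26.1% lower). Envoplakin (Evpl), which ties keratins to the desmosome and the cornified envelope, rose by 1.71 ± 0.12 (SE), from 742.5 and 614.7 to 2055.3 and 2448.7. Itgb4, the integrin subunit to which keratins are tied in hemidesmosomes, rose by 1.25 ± 0.09 (SE). The keratin-binding protein trichoplein (Tchp) fell by 0.71 on the log2 scale. Itga6, the partner subunit of Itgb4, was at -0.41, a call that did not hold when permissive replicate 2 (-0.32) or nonpermissive replicate 2 (-0.31) was left out, or with the mean of its probe sets (-0.21). Under spike-in scaling 3 were higher and 3 lower, and over all 7015 genes then tested 800 were higher and 3359 lower.

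The cornified envelope and squamous genes were split. Of 16 with a probe set, 8 were tested, with 3 higher and 3 lower (median 0.07), against 23.1% and 26.1% of all genes tested. Aldh3a1, an aldehyde dehydrogenase abundant in cornea, went from 14.2 and 32.8, under the limit, to 305.7 and 300.5, a rise of at least 3.16-fold against the limit. The desmosomal cadherin Dsc2 rose by 2.42 ± 0.09 (SE). Sfn, the 14-3-3 protein of squamous epithelia, was at -0.98 ± 0.12 (SE) and the annexin Anxa8 at -0.77 ± 0.09 (SE), both called lower. Involucrin (Ivl), at 5.5 and 6.5 against 1.9 and 4.0, and Loricrin, at 23.3 and 28.7 against 23.5 and 30.5, were under the limit at both temperatures. The counts were 2 higher and 4 lower under spike-in scaling, against 800 and 3359 of all 7015 genes then tested.

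Among 17 tested transcription factors that act on epithelial keratin genes or on airway cell identity, 8 rose and 1 fell (median 0.41), against 23.1% and 26.1% of all genes tested. Notch1, the receptor that turns airway basal cells toward luminal fates, rose by 2.58 ± 0.18 (SE), from 107.1 and 78.0 to 649.4 and 699.2. Nkx2-1, the factor of lung and tracheal identity, rose by 1.84 ± 0.11 (SE), from 531.1 and 484.7 to 1983.9 and 1822.2. Klf4, a factor of squamous differentiation, was the member that fell, by 0.52 on the log2 scale. Tp63, the factor of basal cells, was under the limit at both temperatures, at 1.5 and 3.6 against 41.0 and 24.8. In the fit without a limit it was called higher (adjusted p 0.0172). The counts were 6 higher and 3 lower under spike-in scaling, against 800 and 3359 of all 7015 genes then tested.

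Other intermediate filament genes were mixed, with 3 higher and 2 lower of 8 tested (median -0.09), against 23.1% and 26.1% of all genes tested. Vimentin (Vim), the filament of mesenchymal and many cultured cells, was at 7875.3 and 8911.3 at 33 °C and at 7283 and 8199.4 at 39 °C. It was not called (adjusted p 0.993), though it was called lower under median centring (-0.27) and under spike-in scaling (-0.50). Synemin (Synm) rose by 1.70 ± 0.16 (SE), and fell under the limit with the mean of its probe sets. Desmin (Des) was at 0.83, a call that did not hold under spike-in scaling (0.58), without a limit (adjusted p 0.0708) or without permissive replicate 1 (0.64) or nonpermissive replicate 1 (0.62) or 2 (1.03). Desmin had a mean under the limit at 33 °C, at 57.7 and 81.5, and passed it only through 39 °C, a rise of at least 1.63-fold against the limit. Nestin (Nes) was 2.49-fold lower and the lamin Lmnb2 1.995-fold lower. The counts were 1 higher and 5 lower under spike-in scaling, against 800 and 3359 of all 7015 genes then tested.

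Markers of airway and other cell types moved beside the keratins, and their part in the keratin changes was not tested. Fewer cells of a type and less RNA per cell cannot be told apart in these bulk samples. Of all genes tested, 23.1% were called higher and 26.1% lower. Of the 9 basal markers with a probe set, 5 were tested, with Itgb4 higher and Itga6 lower. The Itga6 call did not hold in every fit, as given above. Above background were 4 at 33 °C (Krt14, Pdpn, Itga6 and Itgb4) and 6 at 39 °C, with Krt15 and Aqp3 added, while Krt5, Tp63 and Ngfr were under it at both. The summed deposited intensity of the 9, most of it Krt14, was 16302 to 16636 at 33 °C and 17069 to 17085 at 39 °C. Krt14 itself and Itga6 had lower deposited intensities at 39 °C, while Itgb4 went from 1489.5 and 1414.6 to 3281.2 and 3412.2. Of 7 secretory markers with a probe set, 1 was above background at 33 °C and 3 at 39 °C, with a summed deposited intensity of 471 to 513 against 1268 to 1465. Scgb1a1, which club cells secrete, rose from under the limit, at least 6.07-fold, as did Aldh1a1, at least 4.64-fold. Lcn2 was at least 3.06-fold lower and under the limit at 39 °C. Of 4 ciliated markers, Tppp3 was tested and called lower (-0.91), without a call when permissive replicate 2 (-0.81) or nonpermissive replicate 2 (-0.51) was left out or in the fit without a limit (adjusted p 0.0638). Tekt1, a protein of cilia, was under the limit at 33 °C, at 32.8 and 27.4, and above it at 39 °C, at 100.2 and 87.7, so that 1 ciliated marker was above background at 33 °C and 2 at 39 °C. Foxj1 was under it at both, and the summed deposited intensity was 237 to 327 against 237 to 322. Of 13 fibroblast markers 1 was above background at 33 °C and 3 at 39 °C, with a summed deposited intensity of 654 to 689 against 934 to 1109. The collagens Col5a2 (at least 3.28-fold) and Col3a1 (at least 2.26-fold) rose from under the limit, while Col1a1, Dcn and Pdgfra were under it at both temperatures.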

How the data were processed

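RNA of the RTEC11 cells was measured on 1-colour Affymetrix rat arrays, 1 per sample, after biotin labelling of cRNA, per the labels' protocols. The deposited values are linear intensities, which the authors had scaled: from the values, the mean after trimming 2% at each end was about 500 on each array. The summarising software and the genome build are not given in the sources used here. Detection calls were not used. Here 57 control probe sets were left out and log2(intensity + 16) was quantile normalized, since the medians of the arrays spanned 0.175 (log2). Probe sets were named from GEO's platform annotation. Each gene was represented by its brightest probe set, with _x_at sets only where there was no other, and those whose mean lay below the 40th percentile went untested. Temperatures were compared with limma 3.58.1 in R 4.3.3 (intensity trend, two-sided, 2 residual degrees of freedom plus 9.23 prior ones at the median, Benjamini-Hochberg over 7016 genes, threshold 0.05). The procedure was tested on simulated data. A gene was above background where any of its probe sets had a group mean at or over the limit. No list was given a test of its own. Named genes were every keratin, in each companion list up to 2 called genes that rose most and 2 that fell most, and Scgb1a1, Foxj1, Tp63 and Vim. A few further values (Ivl, Loricrin, Tchh, Ngfr, Pdpn, Aqp3, Tekt1, Col1a1, Dcn, Pdgfra) were chosen after they were seen. The members and lists were chosen with earlier results of these data known. Coordinates are those of RefSeq promoter windows of assembly GRCr8. The number of arrays limits the precision. Plots used matplotlib 3.10.9 (Python 3.11.15). Alternatives are given in the closing section.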

Additional observations from a re-analysis of the deposited data

How the results depend on the processing

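The calls of Krt6c and Krt19 as higher and of Krt7 and Krt18 as lower held under each other scaling, added constant, limit, choice of probe sets and variance model, with the replicate block and without each array. Those of Krt4 and Krt79 held in each of these fits that tested them: Krt4 fell under the limit with 1 added to each intensity, and both did with the limit at the 60th percentile. There 3 of the 6 keratins tested were called higher and 2 lower, against 1279 and 1474 of all 5009 genes tested. Krt8 lost its call on the deposited scale, under median centring, without a limit on dim genes (adjusted p 0.127), without the intensity trend (0.165) and in 3 of the 4 fits without 1 array. Its change under spike-in scaling was -0.21. Over all genes, this last scaling gave 800 higher and 3359 lower, against 1619 and 1829 after quantile normalization, 1826 and 1664 on the deposited scale, and 1346 and 2322 under median centring. Leaving out 1 array at a time gave 4 to 6 keratins higher and 2 lower, and 1222 to 1525 genes higher and 1423 to 1686 lower. With the replicate number as a replicate block, 5 keratins were higher and 2 lower, as without it, against 1737 and 1969 of all 7016 genes tested. Same-numbered arrays did not deviate together (r = -0.0060 over 9520 probe sets), so the numbers are not taken to pair samples.

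With the background limit at the 25th percentile, 11 keratin genes were above it at 33 °C and 16 at 39 °C, against 7 and 10. The counts were 5 and 7 at the 60th percentile, 7 and 10 with the 90th percentile of the genes of unrelated tissues as the limit, and 7 and 12 on the deposited scale. Without 1 array they were 7 to 8 and 10 to 12. Which dim keratins are present thus depends on where the limit is set, and no depth or detection p is at hand to settle it. In the fits without 1 array, a gene's level for the limit was the mean of its group means. That rule was chosen after seeing the data: the one run first took the plain mean of the 3 remaining arrays, which left Krt4 under the limit and untested without nonpermissive replicate 1 or 2, and 3 to 6 keratins were then called higher and 2 lower, with 3 in each of those fits. Aldh3a1 was untested in the same fits, and Lcn2 without permissive replicate 1 or 2. The counts above background did not change between the 2 rules.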
